A study of Homo sapiens with 6 samples.

Results

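Stromal cytokines and chemokines, 10 of the 62492 features in the count table, were followed by the ribosome footprints counted on them in WPMY-1 cells, a human prostate stromal cell line with myofibroblast traits. They were taken by Ensembl gene ID from a list of named cytokines and chemokines, with no cutoff on their values. Earlier results of these data were known when the list was chosen. The genes were IL6, IL11 and LIF, CXCL12, CCL2, CXCL8, CXCL1 and CXCL2, and IL1A and IL1B. All 10 were found, each as 1 row. The sh61A group held 3 libraries of cells with a short hairpin RNA against TRMT61A, and the shcontrol group held 3 libraries of cells with a control hairpin, labelled TRMT61A wildtype. TRMT61A is the catalytic subunit of the enzyme that places 1-methyladenosine in transfer RNA, and the study, on benign prostatic hyperplasia, asked how its loss changes translation. All 6 libraries came from this single line, and nothing in the labels says whether those of 1 group were grown as separate cultures, so the spread on which the p-values rest may be purely technical. The table pairs no ID with a gene name, and the 10 names came with the list, so the level of TRMT61A itself, the markers of stromal and other cells, and the receptors and signalling genes of these cytokines were not analysed here.

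Stromal fibroblasts shape the prostate partly through such secreted proteins. IL6, IL11 and LIF belong to the cytokine family that signals through the receptor subunit gp130 and the JAK-STAT pathway, and IL11 is a known target of TGF-beta in fibroblasts. CXCL12 is a chemokine that stromal cells make without an inflammatory trigger and that acts through the receptor CXCR4. CXCL8, CXCL1 and CXCL2 draw neutrophils through CXCR2, CCL2 draws monocytes through CCR2, and IL1A and IL1B start inflammatory cascades. Several of these genes have short-lived mRNAs and promoters that respond to NF-kappaB.

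The libraries held between 12704354 and 17752247 counts in sh61A and between 6771455 and 8008896 in shcontrol. Levels are given as CPM, read counts scaled to library depth with TMM factors, and they were not set against each other between genes, because no transcript length was used. A count of 0 in all 3 libraries of a group allows up to 3 counts, that is 0.0762 CPM in sh61A and 0.123 CPM in shcontrol, which covers counting error only. Features were tested with edgeR's quasi-likelihood test, and a change was called at a Benjamini-Hochberg adjusted p under 0.05 over all 11653 features that passed the filter on low counts. The test called 364 of them, 3.12% of those tested (173 higher in sh61A, 1.48%, and 191 lower, 1.64%). When libraries were scaled by their totals instead of TMM, the split was 63 higher and 334 lower.

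Of the 10 genes, 5 passed the filter (IL11, LIF, CXCL12, CCL2 and CXCL8), and the other 5 were too sparse to test. None of the 5 tested genes was called by edgeR. At an unadjusted p under 0.05 there were 2, IL11 and CXCL12, beside 16.3% of all tested features. The same 2 genes were the only ones of the 5 whose groups did not overlap, beside 24.8% of all tested features. Both were higher in sh61A, a direction in which 12.2% of all tested features were separated. DESeq2 called both of these genes, beside 6.5% of all features that passed the filter, and limma voom called neither, beside 3.8%.

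**Figure D1:**
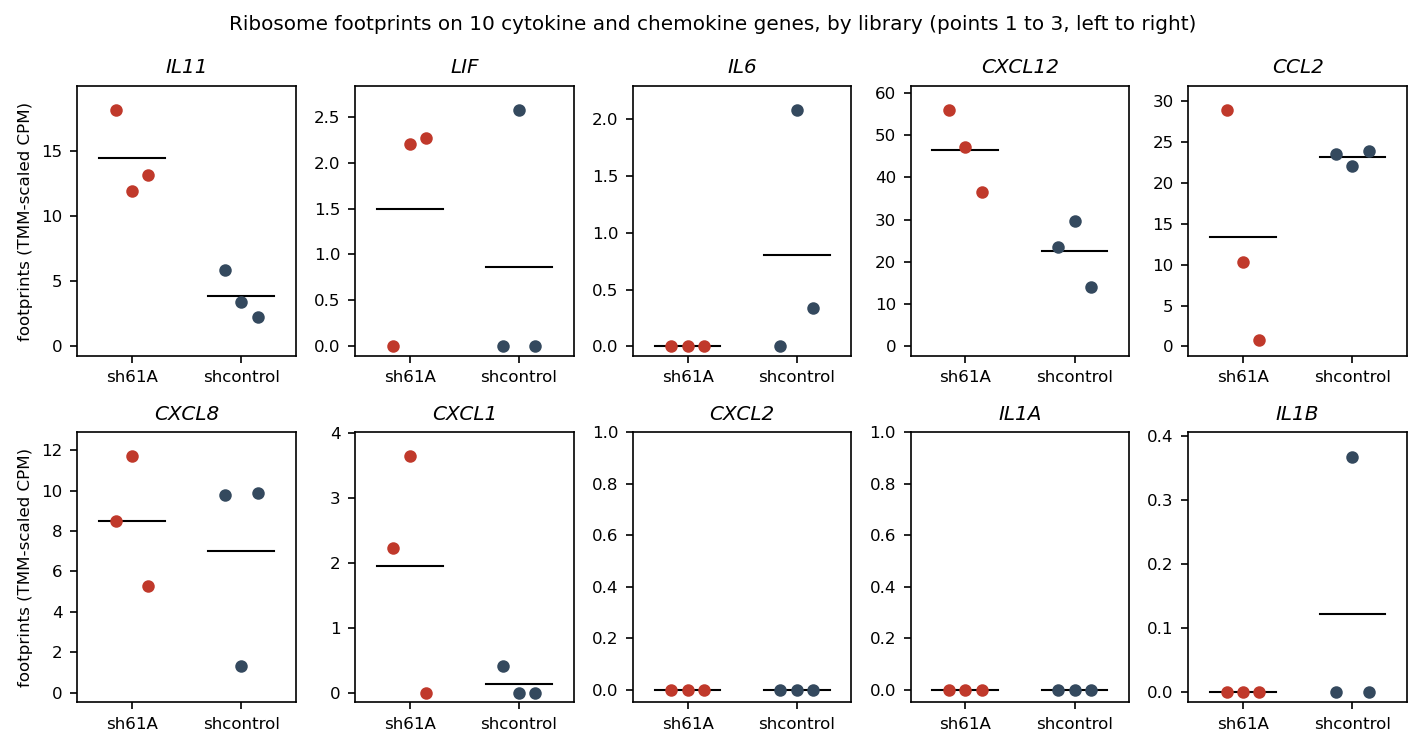
Ribosome footprints on each of the 10 genes in TMM-scaled CPM (vertical axis, a separate scale for each gene), with 1 point per library and a line at the mean of each group of 3. IL11 and CXCL12 lie higher in all 3 sh61A libraries than in any shcontrol library, CCL2 spreads widely in sh61A and narrowly in shcontrol, and CXCL2 and IL1A lie at 0 throughout.

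IL11 (ENSG00000095752), a gp130 cytokine known for fibroblast activation, had the larger difference. It had 276, 141 and 162 counts in sh61A libraries 1 to 3, which is 18.1, 11.9 and 13.1 CPM, against 43, 28 and 20 counts in shcontrol libraries 1 to 3, which is 5.83, 3.43 and 2.27 CPM. The lowest sh61A library was 2.05 times the highest shcontrol library. The means were 14.4 ± 3.3 CPM in sh61A and 3.84 ± 1.82 CPM in shcontrol (SD, n = 3 each). The fitted change was 3.76-fold (95% interval 1.78 to 7.91), a log2 fold change of 1.91 ± 0.49 (SE). Its adjusted p in edgeR was 0.0591, just short of the threshold, at an unadjusted p of 0.00222 that ranked 438 of 11653. The call depended on the test and the filter: the adjusted p was 0.0128 in DESeq2, and in edgeR it was 0.0191 with no filter and 0.216 without shcontrol library 2. Among features with at least 10 CPM in 3 libraries it was 0.0290, but IL11 passed that filter only through its 3 sh61A libraries, so this value gives the call no support. Over all 17 alternatives it ran from 0.0128 to 0.216.

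CXCL12 (ENSG00000107562), the homeostatic stromal chemokine, was the other gene with separate groups. It had 852, 558 and 450 counts in sh61A libraries 1 to 3 (56.0, 47.3 and 36.5 CPM), against 174, 242 and 125 counts in shcontrol libraries 1 to 3 (23.6, 29.7 and 14.2 CPM). The means were 46.6 ± 9.8 CPM in sh61A and 22.5 ± 7.8 CPM in shcontrol (SD, n = 3 each), and the lowest sh61A library was 1.23 times the highest shcontrol library. The fitted change was 2.07-fold (95% interval 1.29 to 3.33), a log2 fold change of 1.05 ± 0.31 (SE), and edgeR gave it an adjusted p of 0.100. Its unadjusted p was 0.00573, which ranked 665 of 11653. The adjusted p was 0.0419 in DESeq2, and in edgeR it was 0.0445 among features with at least 10 CPM in 3 libraries, where 9.85% of all features were called, and 0.0226 with no filter, where 3.58% were, within a range of 0.0226 to 0.288 over the 17 alternatives. The separation of the groups rested on the scaling. With library size alone the lowest sh61A library stood at 35.4 CPM and the highest shcontrol library at 35.7 CPM, whereas IL11 stayed separate, at 10.6 CPM and above in sh61A and 5.37 CPM and below in shcontrol.

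Footprints count mRNA and its translation together, so a higher value may reflect more mRNA, denser ribosomes or both, and in a bulk culture more cells making a transcript cannot be told apart from more of it in each cell. Both genes spread more than the median feature of like abundance in shcontrol and less in sh61A. Features were matched on the mean over all 6 libraries, while both genes lay lower in shcontrol than in sh61A. The match therefore does not hold within each group, and no conclusion on their spread follows. The coefficient of variation of IL11 was 22.8% in sh61A and 47.3% in shcontrol, beside medians of 37.9% and 33.3% over the 2699 features with a mean CPM within 1.5-fold of it. Of those features 46 were called, 1.70%. That of CXCL12 was 21.0% in sh61A and 34.7% in shcontrol, beside medians of 22.0% and 21.5% over 1684 such features. Among these, 110 were called, 6.53%.

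The promoters of these 2 genes, whose footprint groups were separate, are shown as the 250 bases before the RefSeq start site (GRCh38.p14), 5′ to 3′ in the direction of the gene. Capitals mark a match, on either strand, to 1 of 5 motifs: AP-1 (TGANTCA), C/EBP (TTGCNNAA), STAT (TTCNNNGAA), a TATA box (TATAAA) and kappaB (GGGRNWYYCC). N stands for any base, R for A or G, W for A or T and Y for C or T. Only strings that fit these letters in full were marked, so variants of a site, such as tatataa in the IL11 window, were not. IL11 lies at chr19:55370464-55370713 (minus strand) and CXCL12 at chr10:44385098-44385347 (minus strand).
IL11: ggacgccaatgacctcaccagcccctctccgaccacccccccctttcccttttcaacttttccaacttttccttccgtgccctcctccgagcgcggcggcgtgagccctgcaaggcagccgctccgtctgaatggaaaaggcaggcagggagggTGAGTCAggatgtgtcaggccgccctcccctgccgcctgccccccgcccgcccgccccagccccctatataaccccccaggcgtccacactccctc
CXCL12: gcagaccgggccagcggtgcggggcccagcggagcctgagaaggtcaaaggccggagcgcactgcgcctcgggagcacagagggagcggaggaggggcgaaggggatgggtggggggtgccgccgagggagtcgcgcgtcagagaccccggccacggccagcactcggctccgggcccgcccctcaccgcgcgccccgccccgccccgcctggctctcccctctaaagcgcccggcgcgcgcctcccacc
The IL11 window held 1 match, to AP-1, from base -96 to -90 counted back from the start site. The CXCL12 window held none of the 5. Of all 35116 windows of this length in the table, 6.57% held an AP-1 match, 9.05% a C/EBP match, 6.57% a STAT match, 10.7% a TATA match and 5.21% a kappaB match. Windows were at hand for 8 of the 10 genes, all but CCL2 and LIF.

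LIF (ENSG00000128342), a gp130 cytokine named for its effect on leukaemia cells, was close to the limit of detection. It had 0, 26 and 28 counts in sh61A libraries 1 to 3 (0, 2.20 and 2.27 CPM), against 0, 21 and 0 counts in shcontrol libraries 1 to 3 (0, 2.57 and 0 CPM). The groups overlapped, and each had libraries both at 0 and above 2 CPM. The log2 fold change was 0.78 ± 1.97 (SE), with a 95% interval from -3.51 to 5.08 and an adjusted p of 0.914 in edgeR, so a large change in either direction was within the error. The gene table places LIF-AS1 and LIF-AS2 over it, and without a stated strand their reads cannot be told apart from those of LIF.

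IL6 (ENSG00000136244), the founding gp130 cytokine, had no count in any sh61A library, against 0, 17 and 3 counts in shcontrol libraries 1 to 3 (0, 2.08 and 0.340 CPM). Pooled over libraries, the IL6 level in shcontrol was 10.8 times the limit in sh61A, taking 3 counts over the group as that limit. The groups overlapped at 0 in shcontrol library 1, and 17 of the 20 counts came from shcontrol library 2. Without that library 3 counts remained and no fold could be given. The value of 10.8 covers counting error in sh61A only, since the 20 shcontrol counts were taken without error. The gene did not pass the filter, and in edgeR without a filter its adjusted p was 0.395. IL6-AS1 overlaps it in the gene table, which leaves the origin of these few reads uncertain where strand is not stated.

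CCL2 (ENSG00000108691), the monocyte chemokine, was the gene on which the sh61A libraries disagreed most. It had 441, 122 and 9 counts in sh61A libraries 1 to 3 (29.0, 10.3 and 0.729 CPM), against 174, 180 and 211 counts in shcontrol libraries 1 to 3 (23.6, 22.1 and 23.9 CPM). Library 1 of sh61A lay above every shcontrol library and the other 2 lay below them all. With library size alone the highest sh61A library, at 24.8 CPM, lay within the shcontrol range of 21.7 to 28.8 CPM. The highest sh61A library was 39.8 times the lowest, whereas in shcontrol the highest was 1.08 times the lowest. The coefficient of variation was 108% in sh61A and 4.28% in shcontrol, beside medians of 27.8% and 26.0% over 2591 features of like abundance. With library size alone it was 106% in sh61A and 14.1% in shcontrol, so the narrow shcontrol spread rested in part on the scaling. The features of like abundance were matched on the mean over all 6 libraries, while CCL2 averaged 13.4 CPM in sh61A and 23.2 CPM in shcontrol. The match does not hold within each group, so no conclusion is drawn from the medians. The log2 fold change was -0.79 ± 0.76 (SE), with a 95% interval from -2.45 to 0.87 (adjusted p = 0.709 in edgeR). It was -0.23 without sh61A library 3 and -2.07 without sh61A library 1 (adjusted p = 0.876 and 0.216 in edgeR). Its size thus rested in part on single sh61A libraries. With all 6 libraries the log2 fold change was -1.78 in limma voom and -1.59 in edgeR with the replicate block, so its size also rested on the method.

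Features other than CCL2 also differed widely among the libraries of a group, in shcontrol as well as in sh61A. Over the whole table, 1241 features had 0 counts in 1 sh61A library and at least 30 in another, against 263 in shcontrol. At the greater depth of sh61A 30 counts is a lower CPM, so the 2 numbers are not at a like cutoff. The median coefficient of variation was 27.8% in sh61A and 26.0% in shcontrol over features of like abundance to CCL2. Over features of like abundance to LIF it was 90.9% and 79.4%. Among the 10 genes CXCL1 was such a case, and its part in the results was not tested.

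CXCL8 (ENSG00000169429), a neutrophil chemokine, had 129, 138 and 65 counts in sh61A libraries 1 to 3 (8.48, 11.7 and 5.27 CPM), against 72, 11 and 87 counts in shcontrol libraries 1 to 3 (9.76, 1.35 and 9.87 CPM). The groups overlapped fully apart from shcontrol library 2, which lay below every other library. The log2 fold change was 0.28 ± 0.67 (SE), with a 95% interval from -1.17 to 1.73 (adjusted p = 0.908 in edgeR). Without shcontrol library 2 it was -0.21 (adjusted p = 0.953) and without sh61A library 2 it was -0.02 (adjusted p = 0.994), so its direction was not settled.

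CXCL1 (ENSG00000163739), a closely related neutrophil chemokine, had 34, 43 and 0 counts in sh61A libraries 1 to 3 (2.24, 3.64 and 0 CPM), against 3, 0 and 0 counts in shcontrol libraries 1 to 3 (0.407, 0 and 0 CPM). Pooled over libraries this was 77 counts in sh61A and 3 in shcontrol, a ratio of 15.9 with an exact 95% interval of 5.23 to 78.7 that covers counting error only. The groups overlapped because sh61A library 3, the one with the least CCL2, had no CXCL1 count. CXCL1 failed the filter with all 6 libraries. In edgeR its adjusted p was 0.433 with no filter and 0.298 without sh61A library 3. It was 0.351, 0.723 and 0.698 without shcontrol libraries 1, 2 and 3 in that order. In these fits with 1 library left out, CXCL1 passed the filter only through sh61A libraries 1 and 2, so their values give no support to a change. The fit without sh61A library 3 also dropped the only sh61A library with no CXCL1 count. All 3 shcontrol counts came from library 1, without which the ratio has no denominator. With every library thinned to 6771455 counts, CXCL1 kept 13, 25 and 0 counts in sh61A and 2, 0 and 0 in shcontrol.

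CXCL2 (ENSG00000081041), a near-identical paralogue of CXCL1 with the same receptor, had 0 counts in all 6 libraries, which allows up to 0.0762 CPM in sh61A and 0.123 CPM in shcontrol. How the authors placed reads that map to both genes is not given in the sources used here, so the split between CXCL1 and CXCL2 is uncertain. CXCL1, CXCL2 and CXCL8 all lie on chromosome 4. The promoters of CXCL1 and CXCL2 are shown because their stretches next to the start site are nearly alike while the counts differed, CXCL1 at chr4:73869143-73869392 (plus strand) and CXCL2 at chr4:74099196-74099445 (minus strand), with capitals as above.
CXCL1: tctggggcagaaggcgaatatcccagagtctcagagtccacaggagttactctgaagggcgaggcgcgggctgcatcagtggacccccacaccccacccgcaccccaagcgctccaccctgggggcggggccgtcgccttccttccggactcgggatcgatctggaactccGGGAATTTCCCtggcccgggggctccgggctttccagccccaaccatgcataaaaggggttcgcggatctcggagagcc
CXCL2: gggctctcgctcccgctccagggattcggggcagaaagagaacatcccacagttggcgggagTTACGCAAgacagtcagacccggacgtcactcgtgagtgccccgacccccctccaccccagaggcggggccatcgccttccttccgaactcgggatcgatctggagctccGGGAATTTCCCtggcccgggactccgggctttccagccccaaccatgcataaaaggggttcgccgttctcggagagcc
Both windows held 2 overlapping kappaB matches in 1 run of capitals, from base -79 to -69 in CXCL1 and from -78 to -68 in CXCL2. In the last 60 bases before the start site the 2 windows had the same letter at 57 positions. The bases further upstream were not aligned. The longest run shared by the 2 whole windows was 42 bases, from -57 to -16 in both, which lies within these last 60 bases. Only CXCL2 had a C/EBP match, from -188 to -181. Of the 8 genes with a window, 3 had a kappaB match (IL6, CXCL1 and CXCL2), 3 an AP-1 match (CXCL8, IL1A and IL11) and 3 a C/EBP match (IL6, IL1B and CXCL2). A gene without a match may still hold a variant of the site. The CXCL8 window holds tggaatttcc, which differs from the kappaB letters only in its first base. A TATA match was found in 2 (CXCL8 and IL1A) and a STAT match in 1 (IL1B). The TATA match lay from -31 to -26 in CXCL8. In IL1A, which had more than 1 window, it lay from -239 to -234 in only 1 of them.

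The interleukin 1 genes were at the limit of detection. IL1A (ENSG00000115008) had 0 counts in all 6 libraries. IL1B (ENSG00000125538) had 0 counts in all 3 sh61A libraries, against 0, 3 and 0 in shcontrol libraries 1 to 3 (0, 0.368 and 0 CPM). Both groups were at or under the limit of 3 counts, so no fold was computed for either gene. The 2 genes are neighbours on chromosome 2.

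**Figure D2:**
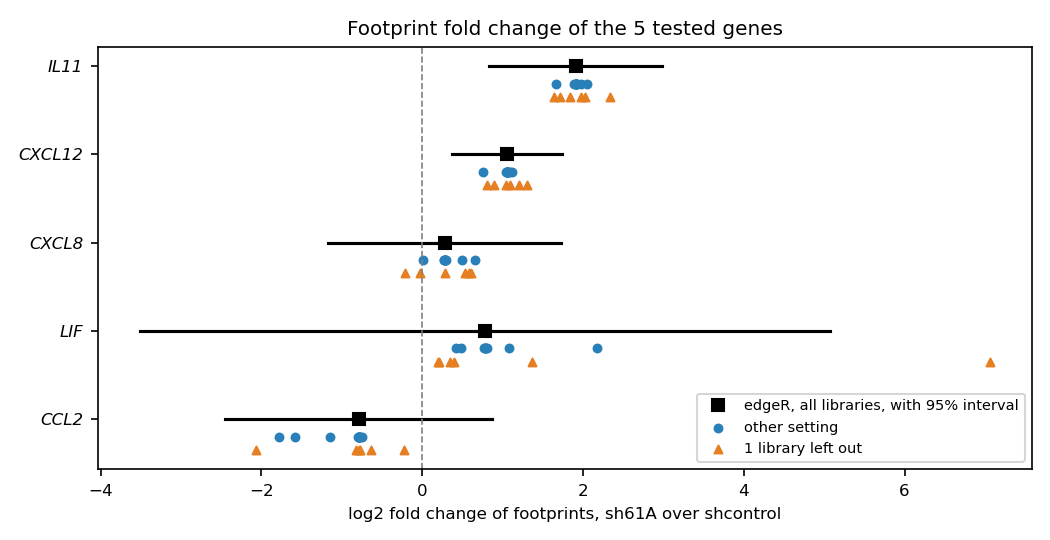
Log2 fold change of footprints, sh61A over shcontrol (horizontal axis), for the 5 tested genes, with the edgeR estimate and its 95% interval (square and line), the other settings (circles) and the fits with 1 library left out (triangles). IL11 and CXCL12 lie above 0 under every setting run, CCL2 below 0, and CXCL8 crosses 0. The LIF value of 7.06 comes from the fit without shcontrol library 2, which leaves both controls at 0, and depends on the prior count.

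The smallest called change in the table was 0.91 on the log2 scale, and the median over all tested features was -0.0047. With library size alone that median was -0.30, and the log2 fold changes were 1.66 for IL11, 0.75 for CXCL12 and -1.14 for CCL2.

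**Figure D3:**
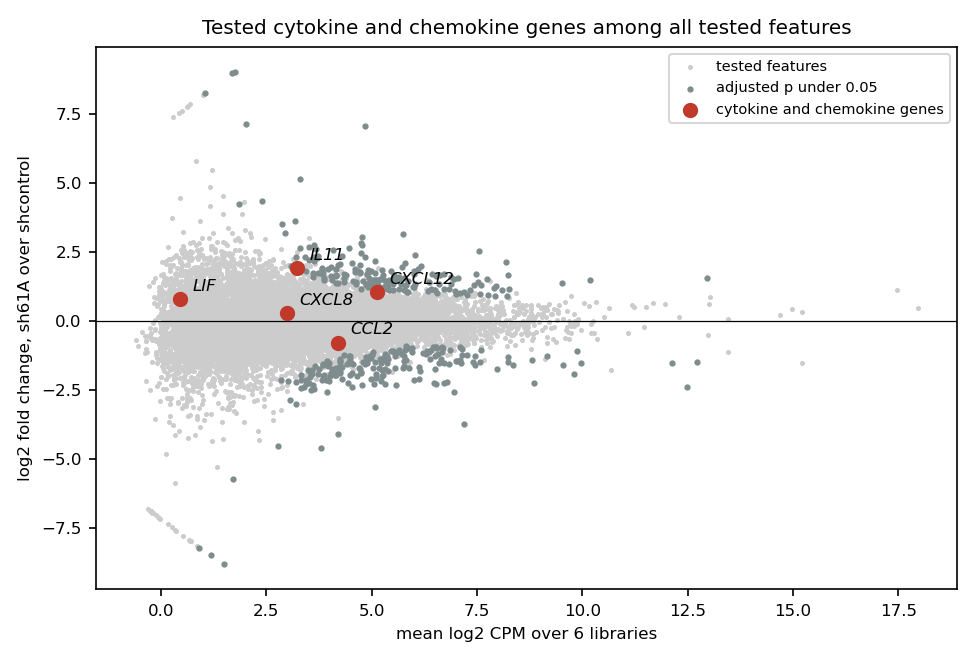
Log2 fold change, sh61A over shcontrol (vertical axis), against mean log2 CPM over the 6 libraries (horizontal axis) for the 11653 tested features, with the 364 called features in dark grey and the 5 tested cytokine and chemokine genes in red. IL11 at 1.91 and CXCL12 at 1.05 lie higher than LIF, CXCL8 and CCL2, and none of the 5 is called.

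Ratios of 2 genes within 1 library do not depend on the scaling between libraries. The 4 genes with counts in every library (IL11, CXCL12, CCL2 and CXCL8) gave 6 such pairs, a comparison added after their values were seen. The ratio of CCL2 to IL11 counts was 1.60, 0.865 and 0.0556 in sh61A libraries 1 to 3, against 4.05, 6.43 and 10.6 in shcontrol libraries 1 to 3. All 3 sh61A libraries lay below all 3 shcontrol libraries, and this held for sh61A library 1, where CCL2 was highest. The ratio of CCL2 to CXCL12 was 0.518, 0.219 and 0.0200 in sh61A, against 1.00, 0.744 and 1.69 in shcontrol, again without overlap. The ratio of CXCL12 to IL11 was 3.09, 3.96 and 2.78 in sh61A, against 4.05, 8.64 and 6.25 in shcontrol, a narrow separation. On the log2 scale the differences were -3.93, -3.04 and -0.90 in that order. Each had an exact two-sided permutation p of 0.1, the smallest that 3 against 3 allows, and an adjusted p of 0.2 over the 6 pairs. The 3 pairs with CXCL8 overlapped between groups, with exact permutation p of 0.3, 0.4 and 0.9. Over all 49466431 pairs of the 9947 tested features counted in every library, the ratios of 24.4% did not overlap between groups. The 6 pairs share genes, so they are not independent. A ratio shows unequal change of 2 genes and not which of them changed.

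**Figure D4:**
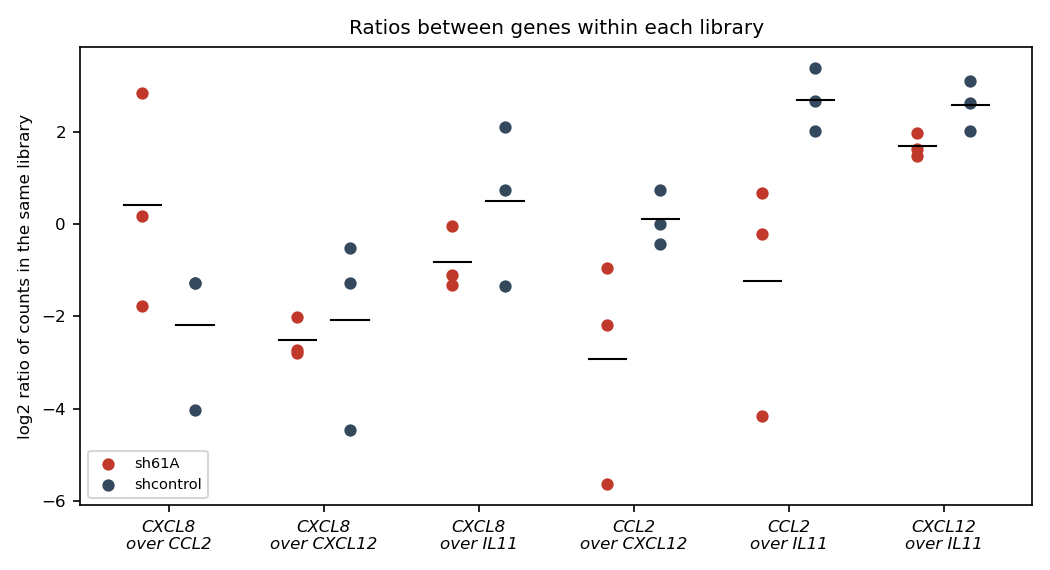
Log2 ratio of the counts of 2 genes in the same library (vertical axis) for the 6 pairs of genes counted in every library, with 1 point per library and a line at the mean of each group of 3. The 3 pairs without CXCL8 lie lower in every sh61A library than in any shcontrol library, beside 24.4% of all feature pairs that do not overlap, and the 3 pairs with CXCL8 overlap.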

How the data were processed

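Ribosome footprints were sequenced from 6 WPMY-1 libraries. The deposited table holds the authors' read counts for each Ensembl ID as whole numbers whose totals differ between libraries. The submitters' processing notes name fastp, Bowtie 1.3.1 and hg38. The counter, the annotation and any strand setting were not given in the sources used here, and most IDs end in a suffix of the kind used for GRCh37 annotation. Control columns carry the word vec and were matched to the shcontrol samples by assay and replicate number. A further 6 columns, named for RNA, belong to no sample described here and were not used, so no translational efficiency was computed.

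Counts were fitted over the whole table with edgeR 4.0.16 in R 4.3.3 (filterByExpr, TMM, quasi-likelihood F-test, Benjamini-Hochberg). Standard errors are the absolute log2 fold change over the square root of F. The fit was also run on simulated counts, drawn for independent libraries with its own fitted dispersions. That run checked the code and cannot show whether the model suits these libraries. Alternatives used DESeq2 1.42.0, limma 3.58.1 with voom, other scalings and filters, the replicate block, thinning and each library left out. Promoter windows are from RefSeq, GRCh38.p14. The genes, lists and tests were chosen with earlier results of these data known. All 10 genes were named by rule. Gene lists given by symbol (receptors, other cytokines, NF-kappaB, JAK-STAT, AP-1, mRNA decay and cell type markers) were not applied, since no ID could be paired with a name.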

Additional observations from a re-analysis of the deposited data

How the results depend on the processing

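IL11, CXCL12, CCL2 and LIF kept their direction under every alternative that tested them. For IL11 and CXCL12 this was largely fixed by the lack of overlap between groups. Both crossed the threshold under 3 of 17 alternatives: DESeq2 (log2 fold change 1.92 and 1.06), no filter on low counts (1.93 and 1.07) and at least 10 CPM in 3 libraries (1.91 and 1.06). Each gave 2 called genes in place of 0, of 5, 8 and 3 that entered the fit. Of the 5 in DESeq2, LIF got no adjusted p. The shares of all features called were 6.5%, 3.58% and 9.85%. The last setting tested 6111 features in place of 11653, and IL11 passed its filter only through the sh61A libraries, so that call is no support. The cause of the others was not tested. With 1 library left out the log2 fold change ran from 1.64 to 2.33 for IL11, from 0.80 to 1.302 for CXCL12, from -2.07 to -0.23 for CCL2, from 0.20 to 7.06 for LIF and from -0.21 to 0.61 for CXCL8, which reversed without shcontrol library 2 and without sh61A library 2. None of the 10 genes was called in any of these 6 fits.

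The count of called features, 364, was 758 in DESeq2, 735 with no filter, 602 with at least 10 CPM in 3 libraries, 208 with the replicate number as a block, and 47 to 171 with 1 library left out. The replicate block gave IL11 an adjusted p of 0.0818 and CXCL12 one of 0.0834 in edgeR, and changed no call among the genes. Deviations of same-numbered libraries correlated at -0.0065, -0.015 and 0.039, so the numbers show no pairing. Levels per coding length were not run for want of transcript lengths. Depth limits what can be said of IL6, IL1A, IL1B, CXCL1, CXCL2 and LIF, each with fewer than 50 counts in every library.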
